A study of Homo sapiens with 6 samples.

Results

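Multidrug efflux transporters of the ATP-binding cassette (ABC) superfamily were followed in U87MG cells treated with RSL3. The set was given as a list of 9 gene symbols, of 65988 gene identifiers in each library. It holds 6 genes of subfamily C, ABCC1, ABCC2, ABCC3, ABCC4, ABCC5 and ABCC10, and 3 others, ABCB1, ABCG2 and ABCB6. U87MG, an established line of human glioblastoma cells, was labelled WT in both groups. Control cells received vehicle (n = 3 libraries) and treated cells received 2 µM RSL3 (n = 3 libraries), for 24 h. RSL3 inhibits GPX4, the enzyme that uses glutathione to reduce lipid hydroperoxides. Loss of GPX4 activity can lead to ferroptosis, an iron-dependent cell death marked by lipid peroxidation. The labels do not say whether the 3 libraries of a group came from separate cultures, so the p-values measure the spread between these libraries only.

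ABC efflux transporters use ATP to move their substrates out of the cytosol. Members of the ABCC subfamily, also called multidrug resistance proteins, export organic anions, among them the conjugates that glutathione S-transferases make from electrophiles such as lipid aldehydes. ABCB1 (P-glycoprotein) and ABCG2 (breast cancer resistance protein) export many drugs without conjugation and are best known in the brain from the endothelium of the blood-brain barrier, and ABCB6 carries porphyrins.

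Total counts lay between 27813462 and 43306335 per library, and the TMM factors used to scale them between 0.995 and 1.01. Of 16105 genes tested, 25.6% were called at an adjusted p under 0.05 by edgeR's quasi-likelihood test, 12.9% higher and 12.7% lower in RSL3-treated cells. The median log2 fold change over these genes was -0.00438. Of the markers of mesenchymal glioma and astroglial cells, VIM, CD44, TNC and CHI3L1 were abundant, GFAP and NES were low, and SOX2 and S100B were at or near 0. The summed level of the 4 endothelial markers was between 0.105 and 0.287 CPM per kilobase of exon (CPM, the usual scaling of counts to a common library size), with CLDN5, CDH5 and PECAM1 near 0, and VWF, the only one tested, was lower after RSL3 (log2 fold change -1.33, edgeR adjusted p = 0.00111). The sum of the 4 immune markers was at most 0.218, with AIF1 and CD3E at 0 counts in all libraries. The 9 glioma markers summed to between 638 and 643 in control cells and between 546 and 568 in RSL3-treated cells. Most of this sum was VIM, with means of 387 and 316. Of these markers 7 were tested and 4 called by edgeR, TNC higher and VIM, CD44 and CHI3L1 lower. OLIG2, with a control mean of 2.65, NES and GFAP were not called. Neuronal markers summed to at most 3.43, most of it SYT1, and those of oligodendrocytes and of epithelium or liver to at most 0.464. The part of these markers in the efflux gene results was not tested.

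Levels were compared between genes per length, as CPM per kilobase of exon. In control cells ABCC4 led with 15.6 ± 0.429 (SD, n = 3), followed by ABCC2 with 12.7 ± 0.253 and ABCC3 with 4.74 ± 0.105. ABCC10 with 2.61 ± 0.109 and ABCC5 with 2.22 ± 0.150 came next. ABCG2 stood at 1.15 ± 0.237, ABCC1 at 0.690 ± 0.0188 and ABCB6 at 0.580 ± 0.0349. ABCB1 was at 0.0179 ± 0.00582, the lowest level of the set. Each neighbour in this order was separated from the next in all 3 control libraries, without any overlap. The place of ABCC1 in it has a limit, described further on. That of ABCC10 before ABCC5 holds per length only, as mean control counts scaled by TMM were 720 against 863. The 6 ABCC genes together reached 38.6 ± 0.587 in control cells, against 1.75 ± 0.198 for ABCB1, ABCG2 and ABCB6.

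**Figure D1:**
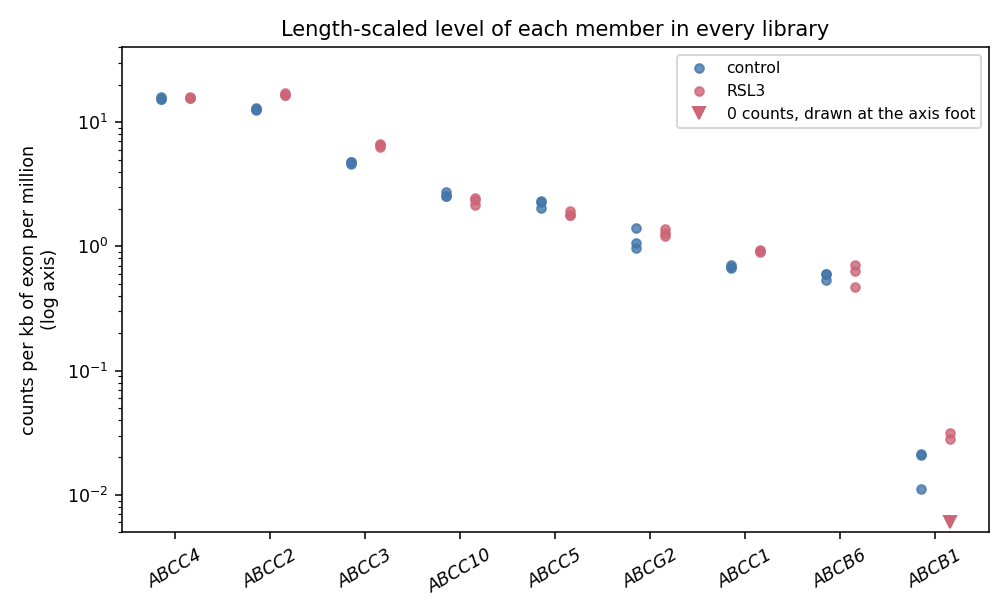
Length-scaled level of each multidrug efflux gene, in CPM per kilobase of exon on a log axis, with 1 point per library (blue, 3 control libraries; red, 3 RSL3-treated libraries) and genes ordered by their control mean. ABCC4 and ABCC2 lead, ABCB1 is far below the others, and the triangle marks the RSL3-treated library in which ABCB1 had 0 counts.

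ABCC2, ABCC3 and ABCC1 rose after RSL3, each 1.32-fold to 1.38-fold. ABCC5 fell by 17.1%. ABCC4, ABCC10, ABCG2 and ABCB6 did not pass the test, and ABCB1 had too few counts to be tested. So 4 of the 9 genes were called, 3 higher and 1 lower, where 25.6% of all genes tested were called. In bulk libraries such as these, fewer cells of a type and less RNA per cell cannot be told apart. Normalized counts below are counts scaled by TMM to the mean library size.

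ABCC2 (MRP2; ENSG00000023839, chromosome 10 of GRCh38, 99782640 to 99852594, plus strand) exports glutathione and glucuronide conjugates and is best known from the canalicular membrane of hepatocytes. Its normalized counts were 3395, 3463 and 3328 in control replicates 1, 2 and 3, and 4462, 4576 and 4404 in RSL3 replicates 1, 2 and 3. Every treated library was above every control library, and the values within a group lay within a few percent of each other. The mean went from 3395 ± 67.7 (SD, n = 3) to 4481 ± 87.8 (SD, n = 3), which is a difference of 0.40 on the log2 scale (edgeR, standard error 0.0337, adjusted p = 1.42e-08). Of the 9 genes it had the smallest p.

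ABCC3 (MRP3; ENSG00000108846, chromosome 17, 50634777 to 50692253, plus strand) exports glucuronide and other conjugates across the basolateral membrane of epithelia. It gave 1514, 1572 and 1576 normalized counts in the control libraries and 2159, 2083 and 2207 in the RSL3-treated libraries. The groups were again well apart. At 0.47, ABCC3 had the largest log2 fold change of the 8 tested genes (edgeR, standard error 0.0421, 95% interval 0.38 to 0.56, adjusted p = 3.42e-08). Ordered by fold change, ABCC3 was number 388 of the 2082 genes called higher, with ABCC1 at 466 and ABCC2 at 485. The median log2 fold change of the genes called higher was 0.227.

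ABCC1 (MRP1; ENSG00000103222, chromosome 16, 15949138 to 16143257, plus strand) exports glutathione conjugates, among them leukotriene C4, and oxidized glutathione. Its normalized counts were 205, 200.5 and 212 in control cells and 274, 269 and 279 in RSL3-treated cells. All treated libraries were above all control libraries. On the log2 scale ABCC1 rose by 0.41 (edgeR, standard error 0.105, adjusted p = 0.00568), with a wider 95% interval than that of ABCC2, 0.19 to 0.63 against 0.33 to 0.47. With 2 surrogate variables in DESeq2 the adjusted p of ABCC1 was 0.0852. The level of ABCC1 is limited by copies of its exons in the reference sequence, which are described further on.

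ABCC5 (MRP5; ENSG00000114770, chromosome 3, 183919934 to 184017939, minus strand) exports cyclic nucleotides and other organic anions. It gave 796, 888 and 904 normalized counts in control cells, and 697, 699.9 and 743 in RSL3-treated cells. Here every treated library lay below every control library, and control replicate 1 came closest to the treated group. The mean went from 863 ± 58.3 (SD, n = 3) to 713 ± 25.8 (SD, n = 3), which is -0.27 on the log2 scale (edgeR, standard error 0.0661, adjusted p = 0.00403). With 2 surrogate variables in DESeq2 its adjusted p was 0.0564.

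ABCC10 (MRP7; ENSG00000124574, chromosome 6, 43427366 to 43450427, plus strand) confers resistance to lipophilic drugs such as taxanes. It gave 702, 755 and 704 normalized counts in control cells and 652, 676 and 591 in RSL3-treated cells. The treated libraries were all below the control libraries, as in ABCC5, which also holds in one direction or the other for 38.6% of the genes tested. Its log2 fold change was -0.17 (95% interval -0.32 to -0.02), and with an edgeR adjusted p of 0.0846 ABCC10 was not called. DLK2 covers 76 (0.94%) of its exon bases on the other strand, and the counting ignored strand. The remaining 8 share no exon base with another annotated gene.

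ABCC4 (MRP4; ENSG00000125257, chromosome 13, 95019835 to 95301475, minus strand) exports cyclic nucleotides and prostaglandins. Its normalized counts were 4499, 4538 and 4734 in control cells and 4594, 4644 and 4670 in RSL3-treated cells. The groups overlapped, with control replicate 3 the highest of the 6 libraries. The log2 fold change was 0.01 with a 95% interval of -0.05 to 0.08 (edgeR adjusted p = 0.808), an interval that does not reach the log2 fold changes of ABCC1, ABCC2, ABCC3 or ABCC5. ABCC4 had the highest counts of the set and the narrowest interval.

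**Figure D2:**
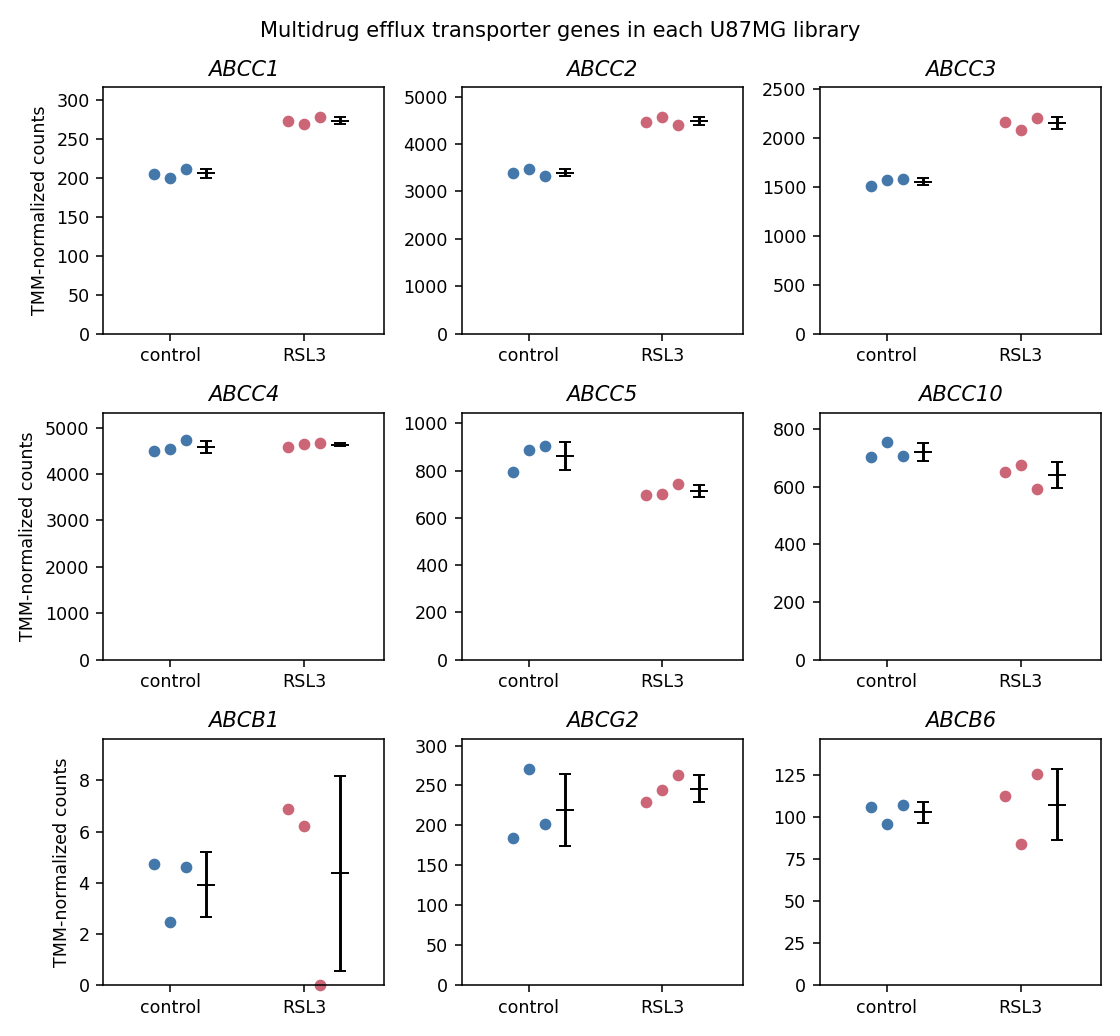
TMM-normalized counts of the 9 genes in each library (blue, control; red, RSL3-treated; n = 3 libraries each), on linear axes that start at 0, with the group mean and SD as a black bar beside the points. The treated libraries lie above the control libraries in ABCC1, ABCC2 and ABCC3, below them in ABCC5 and ABCC10, and overlap their range in the others.

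ABCG2 (ENSG00000118777, chromosome 4, 88090150 to 88231628, minus strand) works as a dimer that exports urate, porphyrins and many drugs. It gave 185, 271 and 202 normalized counts in control cells and 230, 244 and 264 in RSL3-treated cells. Control replicate 2 was the highest of all 6 libraries, so the groups overlapped. On the log2 scale the difference was 0.18 (edgeR, standard error 0.131, 95% interval -0.09 to 0.46, adjusted p = 0.345). Without control replicate 2 it was 0.35 with an edgeR adjusted p of 0.0472, so 1 library decided the call.

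ABCB6 (ENSG00000115657, chromosome 2, 219209772 to 219218994, minus strand) gave 106, 95.9 and 107 normalized counts in control cells and 113, 84.1 and 126 in RSL3-treated cells. Its treated libraries lay on both sides of the control libraries. Between the groups the log2 fold change was 0.06 with a 95% interval of -0.30 to 0.42 (edgeR adjusted p = 0.858). ABCB6 carries porphyrins and, like ABCG2, works as a dimer.

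ABCB1 (ENSG00000085563, chromosome 7, 87503017 to 87713323, minus strand) had 6, 2 and 5 raw counts in control replicates 1, 2 and 3 and 6, 6 and 0 in the RSL3-treated libraries. All libraries were at the limit of detection. The sums of 13 counts in control cells and 12 in RSL3-treated cells correspond to 0.121 CPM (exact Poisson 95% interval 0.0643 to 0.206) and 0.124 (0.0639 to 0.216). The 0 counts in RSL3 replicate 3 allow up to 3 counts, or 0.0877 CPM. These intervals cover counting error only. A difference in ABCB1 was not detectable at this depth. Of the 4 endothelial markers, CLDN5, CDH5 and PECAM1 had at most 8 counts in any library, while VWF had 77, 67 and 95 counts in the control and 26, 17 and 43 in the RSL3-treated libraries.

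Set side by side, 4 of the 6 ABCC genes were called (3 higher, 1 lower), with a median log2 fold change of 0.208 over the 6. Of the other 3 genes 2 were tested and 0 called, with a median of 0.121 over these 2. Over all genes tested 25.6% were called. The number at an unadjusted p under 0.05 was 5 of the 6 ABCC genes, 3 higher and 2 lower, and 0 of the others, both in edgeR and in DESeq2 without surrogate variables. With 1 or with 2 surrogate variables in DESeq2, 3 ABCC genes were higher and 1 lower at such a p, and 0 of the others. In edgeR 35.9% of all genes tested were at such a p. Whether the groups differ was not tested. The standard errors of ABCG2 and ABCB6, 0.131 and 0.173, were several times those of ABCC2 and ABCC4, 0.0337 and 0.0330. The log2 fold change of ABCC2, 0.40, lies inside the 95% intervals of ABCG2 and ABCB6, so these intervals do not exclude a change of that size.

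The balance within the set shifted. In control cells ABCC2 counts were 0.755, 0.763 and 0.703 of ABCC4 counts in the same library, and in RSL3-treated cells 0.971, 0.985 and 0.943. This ratio does not depend on how libraries are scaled. Scaled for exon length, the ABCC2 to ABCC4 ratio had a mean of 0.815 (SD 0.0359, n = 3) before and 1.06 (SD 0.0239, n = 3) after RSL3. Per length, ABCC4 thus led in each control library and ABCC2 in each RSL3-treated library. In raw counts ABCC4 stayed above ABCC2 in every library. The change of lead therefore rests on the exon lengths used, 8629 bases for ABCC4 and 7837 for ABCC2 over all annotated exons. The raw count ratio of ABCC3, called higher, to ABCC5, called lower, went from 1.81 ± 0.0851 to 3.02 ± 0.0722. Such ratios restate the fold changes given above in the same libraries and are no separate result. The ratio of ABCC2 to ABCC3, which both rose, was 2.19 ± 0.0669 in control and 2.09 ± 0.102 in RSL3-treated cells.

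Summed over the 9 genes, the length-scaled level was 39.5, 40.8 and 40.6 in the control libraries and 45.8, 46.2 and 46.1 in the RSL3-treated libraries. ABCC2 made up 31.5% ± 0.784 of this sum in control cells and 36.4% ± 0.687 in RSL3-treated cells. ABCC3 went from 11.8% ± 0.0682 to 14.2% ± 0.430. ABCC4 went from 38.7% ± 0.922 to 34.2% ± 0.165 although its own level was not called, since shares add up to a fixed total. 

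The counts of ABCC1 have a limit that the other 8 genes do not have. The exons of each gene were cut into overlapping windows of 32 bases, and each window was searched on both strands of the hg38 sequence. Of the windows of ABCC1, 97% also occur on an alternate contig, another version of a stretch of a chromosome that accompanies the primary sequence. In the other 8 genes the share was at most 4.28%, reached in ABCC10. A read that matches several places equally well is normally not counted by HTSeq-count, and whether the authors aligned to the alternate contigs is not given in the sources used here.

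Among the rest of the superfamily 5 genes also have most of their windows on such contigs. These are TAP1 and ABCF1 with 100% each, TAP2 with 99.7%, ABCC6 with 96.4% and ABCB11 with 63.5%. TAP1 had 1 count over the 6 libraries and ABCF1 between 2 and 12 per library, while its relatives ABCF2 and ABCF3 stood at 26.6 and 12.8 CPM per kilobase in control cells. ABCB11, a bile salt exporter of the liver, was at 0 counts. Over these 5 genes and ABCC1 the control level was at most 0.690, the value of ABCC1, with a median of 0.0371, against a median of 1.01 over the 42 other genes. The part that such copies play in these values was not tested. The level of ABCC1 given above should therefore not be read against those of the other members, and its fold change rests on whichever of its reads were counted, 163 to 279 per library.

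**Figure D3:**
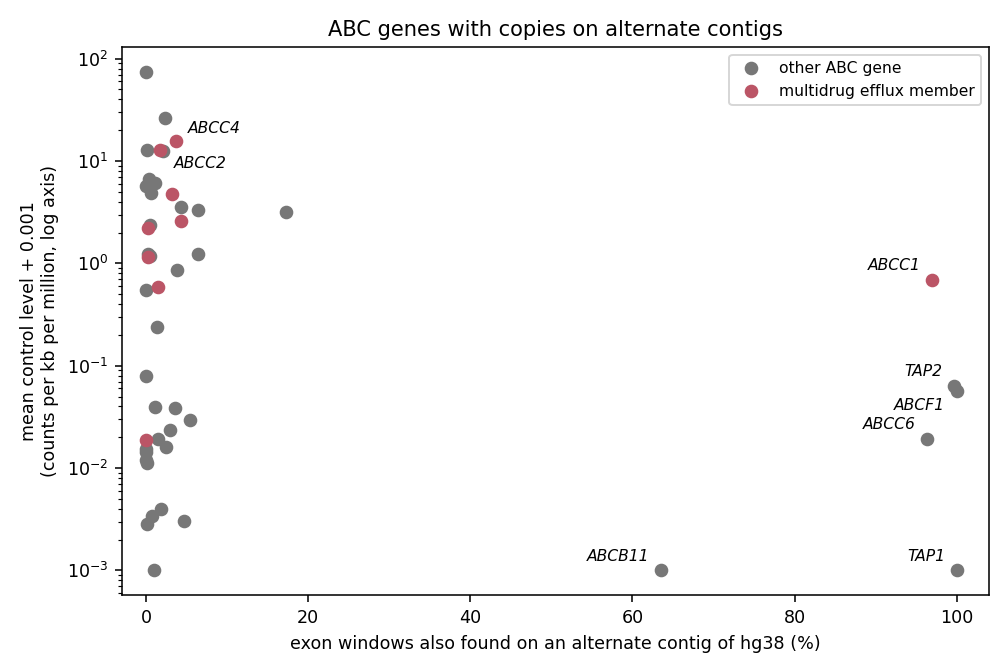
Share of 32-base exon windows that also occur on an alternate contig of hg38 (x axis, %) against the mean control level (y axis, CPM per kilobase of exon, plus 0.001, log axis), with 1 point per ABC gene (red, the 9 multidrug efflux genes; grey, 39 others). The 6 genes above 50% on the x axis all lie at or below the level of ABCC1, 0.690.

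Promoter sequences of RefSeq on GRCh38.p14 were found for 7 of the 9 genes, in 13 entries, since several genes have more than 1 start. ABCC1 and ABCC3, which both rose, had no entry. ABCC2 is thus the only gene called higher that has a window, and its window does not describe the others. They are shown for ABCC2, which rose, ABCC4, which was not called, and ABCC5, which fell, because these genes have 1 start each and went different ways. Each run is the 250 bases before the start, read 5′ to 3′ on the strand of the gene. Capitals mark the antioxidant response element core TGACNNNGC, which NRF2 binds, and the xenobiotic response element core GCGTG, which the aryl hydrocarbon receptor binds, on either strand.
ABCC2, chr10:99782390-99782639, plus strand: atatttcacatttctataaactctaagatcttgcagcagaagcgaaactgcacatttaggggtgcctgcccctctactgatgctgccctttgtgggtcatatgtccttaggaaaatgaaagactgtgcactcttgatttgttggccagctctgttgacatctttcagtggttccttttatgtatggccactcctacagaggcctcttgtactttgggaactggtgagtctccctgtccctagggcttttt
ABCC4, chr13:95301452-95301701, minus strand: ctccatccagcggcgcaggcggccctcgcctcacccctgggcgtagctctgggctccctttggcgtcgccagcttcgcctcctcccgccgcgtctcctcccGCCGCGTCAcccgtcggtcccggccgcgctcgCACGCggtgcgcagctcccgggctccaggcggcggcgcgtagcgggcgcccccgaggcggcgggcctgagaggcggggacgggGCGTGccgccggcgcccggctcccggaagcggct
ABCC5, chr3:184017885-184018134, minus strand: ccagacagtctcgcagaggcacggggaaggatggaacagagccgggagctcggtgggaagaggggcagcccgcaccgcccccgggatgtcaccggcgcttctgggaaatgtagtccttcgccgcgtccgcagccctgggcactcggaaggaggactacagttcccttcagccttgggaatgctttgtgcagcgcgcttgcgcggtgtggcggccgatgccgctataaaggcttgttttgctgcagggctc

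The window of ABCC2, which rose, held neither core, nor did that of ABCC5, which fell. The window of ABCC4, which was not called, held 1 antioxidant response element core and 2 xenobiotic response element cores that do not overlap each other. Over all 35116 promoter windows of the same length, 10.9% held the antioxidant response element core and 32.2% the xenobiotic response element core. Of the member entries, 1 of ABCC10 and that of ABCB6 also held the antioxidant response element core. The bases G and C made up 45.6% of the ABCC2 window, 80.4% of that of ABCC4 and 64.8% of that of ABCC5, against a median of 58.0% over all windows. A GC box, GGGCGG on either strand, was found in the window of ABCC5 and not in those of ABCC2 and ABCC4, and 42.6% of all windows held it. Such matches describe the letters of these windows only, and binding was not tested.

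In the rest of the ABC superfamily, 21 of 39 genes were tested and 9 called, 6 higher and 3 lower. The median log2 fold change of the 21 was 0.0686. The called share over all genes tested was 25.6%. Among the ABCA lipid transporters 4 of 8 tested genes were called, 2 in each direction. ABCA1, which loads cholesterol onto apolipoproteins, rose by 0.28 on the log2 scale (adjusted p = 8.85e-07 in edgeR), from a control mean of 28495 ± 1290 normalized counts to 34679 ± 1006 (SD, n = 3 in each group). Its control level of 73.6 CPM per kilobase exceeded that of the 9 efflux genes together. ABCA2 fell, with a log2 fold change of -0.24, and ABCA12, a lipid transporter of the skin, rose from 25.5 to 51.3 normalized counts, with a log2 fold change of 0.99.

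ABCB4, the phosphatidylcholine exporter that lies beside ABCB1 on chromosome 7, was the only gene called among 6 tested of the other ABCB genes. It rose by 0.84 on the log2 scale (adjusted p = 4.66e-05 in edgeR), from a control mean of 145 ± 6.54 normalized counts to 259.9 ± 38.9 (SD, n = 3 in each group), while its neighbour ABCB1 had at most 6 counts in any library. In the remaining ABCC genes only ABCC9, a regulatory subunit of potassium channels and no exporter, was tested, and it rose with a log2 fold change of 0.52 (edgeR adjusted p = 2.11e-06). Of the peroxisomal and lysosomal ABCD genes, ABCD4 rose, with a log2 fold change of 0.25, and ABCD3 fell (-0.23). ABCE1, ABCF2 and ABCF3, which act on ribosomes and carry nothing across membranes, had log2 fold changes of 0.04, 0.12 and -0.05, of which that of ABCF2 was called. None of the 4 other ABCG genes had enough counts to be tested, the sterol exporter ABCG1 included.

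**Figure D4:**
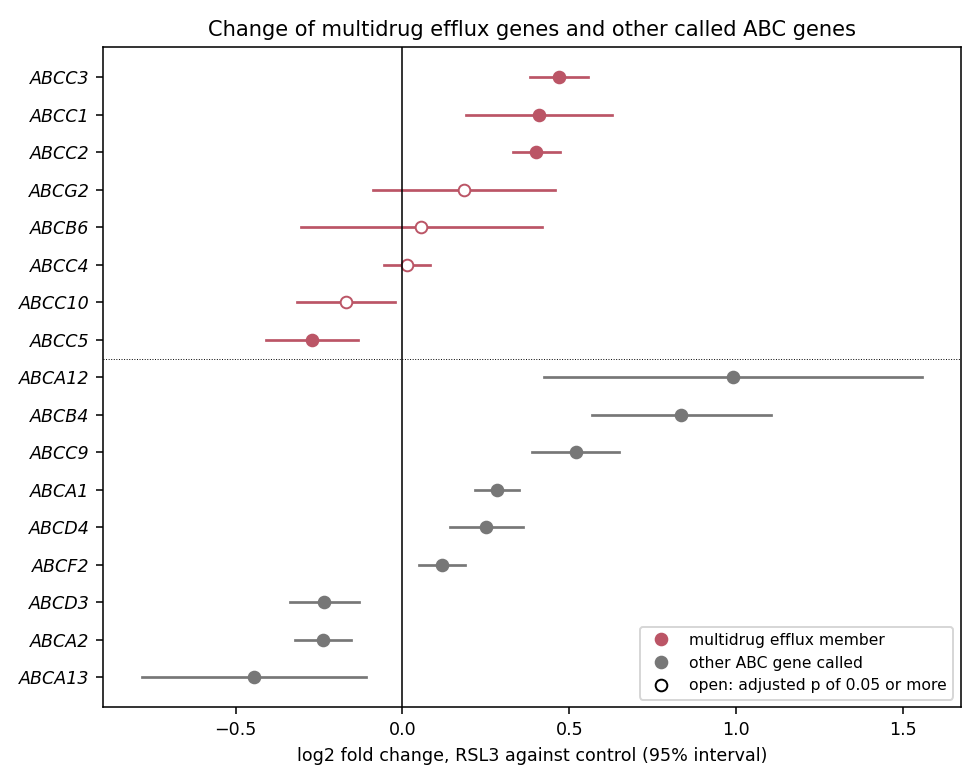
Log2 fold change of RSL3-treated against control cells for the 8 tested multidrug efflux genes (red, top) and the 9 other ABC genes that were called (grey), with 95% intervals from the edgeR fit and open circles where the adjusted p was 0.05 or more. ABCC3, ABCC1 and ABCC2 lie to the right of 0, ABCC5 to the left, and the intervals of ABCG2 and ABCB6 are wide.

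The enzymes that supply and attach glutathione lie before the ABCC exporters. Of 24 such genes 23 had an identifier, 19 were tested and 10 called, 6 higher and 4 lower, with a median log2 fold change of 0.0385. Over all genes tested 25.6% were called. GCLM and GCLC, the subunits of the rate-limiting enzyme of glutathione synthesis, rose with log2 fold changes of 0.67 and 0.45, and GSR, which reduces glutathione disulfide, rose with 0.55 (edgeR adjusted p at most 1.10e-08 in each). Other genes overlap 9.68% of the exon bases of GCLC. Of 20 genes of conjugate processing and leukotriene C4 formation 11 were tested and 3 called, 1 higher and 2 lower, a share near that over all genes tested. GGT1, which cleaves the glutamyl residue of exported conjugates, rose (log2 fold change 0.23). LAP3, a leucine aminopeptidase, fell (-0.21). LTC4S and ALOX5, which act on the route to leukotriene C4, had 0 counts in all libraries.

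Of 15 transcription regulators known to act on efflux transporter genes 12 were tested and 5 called, 3 higher and 2 lower. The called share over all genes tested was 25.6%. AHR, the aryl hydrocarbon receptor, had a mean of 6713 normalized counts in control and 5009 in treated cells and fell (-0.42 on the log2 scale, standard error 0.0326, adjusted p = 4.21e-09 in edgeR). PPARA and KEAP1, the inhibitor of NRF2, both rose, by 0.23 on the log2 scale. NFE2L2, the gene of NRF2, was added after its values were seen and had a log2 fold change of 0.01 (95% interval -0.06 to 0.08, edgeR adjusted p = 0.816), with 38.4% of its exon bases also covered by other genes. NR1I2 and NR1I3, the xenobiotic receptors that control efflux genes in the liver, had too few counts to be tested.

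Of 16 other drug carriers 7 were tested and 5 called, 4 higher and 1 lower, where 25.6% of all genes tested were called. The organic anion carriers SLCO2B1 and SLCO5A1 rose with log2 fold changes of 0.70 and 1.34, and SLC47A1, a proton-coupled exporter of cationic drugs, rose with 0.62 (edgeR adjusted p = 0.00384, the largest of these 3). Of 6 proteins that anchor transporters to the cell cortex all were tested and 3 called, 2 higher and 1 lower. The called share over all genes tested was 25.6%. EZR (ezrin) rose by 0.43 on the log2 scale (adjusted p = 3.91e-07 in edgeR), from a control mean of 1540.5 ± 63.4 normalized counts to 2071 ± 88.0 (SD, n = 3 in each group). NHERF2, a scaffold with PDZ domains, rose (0.78), and RDX (radixin), which holds ABCC2 at the canalicular membrane, fell (-0.12, edgeR adjusted p = 0.0456).

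Over the 6 libraries, APCDD1L-DT, OXCT2P1, OSGIN2 and CHD2 were among the genes whose log2 CPM were most like those of ABCC2, with Pearson's r between 0.9986 and 0.9995. The 6 points fall into the 2 treatment groups, so such values largely describe a like step between the groups.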

How the data were processed

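Poly(A) RNA of U87MG cells was sequenced in read pairs by the authors. The time of 24 h comes from a legend of the paper. The authors used Trimmomatic 0.36 and Fastp for trimming, HISAT2 for alignment to GRCh38.p4, and HTSeq 0.6.1p1, ignoring strand, for counting on exons. The deposited values are raw read counts per Ensembl gene, without normalization. The annotation release is not given in the sources used here. Symbols, exons and coordinates come from GENCODE v44 on GRCh38, which named 56434 of the identifiers, all 9 genes included.

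The tests used edgeR 4.0.16 (R 4.3.3). After filterByExpr (minimum count 10), libraries were scaled by TMM and compared by the quasi-likelihood F test without covariates, with Benjamini-Hochberg adjustment over all genes tested and a threshold of 0.05. Standard errors are the log2 fold change divided by the root of F. DESeq2 1.42.0 with svaseq of sva 3.50.0 was an alternative, as were other scalings, filters, a threshold of 0.01, the replicate number as a block and each library left out. The study used DESeq2 with surrogate variables. The edgeR steps were tested on simulated data with 200 changed genes. The 9 genes and all lists were chosen with earlier results of these data known. In each list at most 3 called genes with the smallest p are named, or all where 3 or fewer were tested, and a few genes under this rule are not reported here. The search for copies on alternate contigs was added after the counts were seen.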

Additional observations from a re-analysis of the deposited data

How the results depend on the processing

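Of 120 refitted log2 fold changes of the 8 tested genes, 117 stayed on the same side of the threshold with no called gene changing direction. The exceptions were ABCC1 (0.42) and ABCC5 (-0.27), which lost their calls with 2 surrogate variables in DESeq2, and ABCG2 (0.35), called without control replicate 2. With 2 surrogate variables 2268 genes were called in all, 2 of the 9 genes higher and 0 lower, with 1 lower at an unadjusted p under 0.05, ABCC5. An adjusted p under 0.01 left 2691 genes and the same numbers for the 9, 3 higher and 1 lower. With each library left out, 3083 to 3924 genes, 3 to 4 of the 9 higher and 1 lower were called. ABCC2 stayed between 0.39 and 0.42 and ABCC3 between 0.45 and 0.49 under all alternatives. Same-numbered libraries deviated together only weakly, with correlations of 0.0222, 0.0273 and 0.0745. Those between unlike numbers lay between -0.0514 and 0.0242, so not every library matched its own number best. These values do not settle whether the samples pair, and the numbers were not taken to pair them. With the replicate block 4633 genes were called, 3 of the 9 higher and 1 lower. The cause of the differences between settings was not tested. Depth did not allow a test of ABCB1.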
